A study of Triticum turgidum subsp. durum with 24 samples.

Results

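ESV1 (Early Starvation1) and its relative LESV (Like Early Starvation) were followed through the development of durum wheat endosperm as 4 genes, an A and a B homeolog of each. They were taken by gene ID from the 66,559 canonical transcripts of the Svevo v1 durum wheat annotation and were ESV1-A1 (TRITD5Av1G240490), ESV1-B1 (TRITD4Bv1G186730), LESV-A1 (TRITD4Av1G102260) and LESV-B1 (TRITD4Bv1G087000). All 4 passed the filter on low counts, as did 44,240 genes in all.

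ESV1 and LESV are related starch-binding proteins that were described from Arabidopsis, where plants without ESV1 use up their leaf starch before the night ends. Neither carries the catalytic domain of a starch synthase, branching enzyme or debranching enzyme. In Arabidopsis, LESV acts while amylopectin, the branched main polymer of starch, takes up its ordered form in the granule, and ESV1 acts to keep that form. Durum wheat is a tetraploid, so most of its genes have a copy on an A and on a B chromosome.

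On the Svevo v1 assembly, ESV1-A1 lies on chromosome 5A, from 625433922 to 625438443, and ESV1-B1 on 4B, from 623765765 to 623770462. The long arms of 4A and 5A have exchanged their ends in wheat, and homeologs on 5A and 4B occur on that account. LESV-A1 lies on 4A, from 297406140 to 297409185, and LESV-B1 on 4B, from 290021633 to 290024736. The transcripts that were counted hold almost only coding sequence, with a coding length of 1299 bases for ESV1-A1, 1308 for ESV1-B1, 1635 for LESV-A1 and 1794 for LESV-B1. Within each pair the B copy was thus the longer one, by little for ESV1 and by more for LESV.

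Endosperm was dissected from grains of wild-type plants of the variety Kronos, grown in controlled environment rooms, at 6, 8, 10, 13, 15, 18, 20 and 30 days post anthesis (dpa), with 3 replicates per timepoint and 24 libraries in all. An RNA extraction held 6 pooled endosperms up to 10 dpa, 4 from 13 to 18 dpa and 3 in older grains. The replicates of a timepoint came from separate plants, while some plants gave spikes to more than 1 timepoint, and which ones is not given in the sources used here.

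Estimated counts totalled 56,180,606 to 115,800,050 per library with a median of 62,724,761, and each of the 4 genes had between 129 and 4894 of them in a library. In keeping with the tissue label, 8 starchy endosperm transcripts (GBSSI, the granule-bound starch synthase of amylose, the cytosolic AGPase subunits and the transporter BT1.1) summed to between 385 and 6503 TPM in every library. GBSSII-B1, the granule-bound synthase of the pericarp, averaged 5.11, 10.1, 11.7, 5.99, 4.96, 3.14, 1.55 and 0.344 TPM from 6 to 30 dpa, which is of the order of ESV1 and LESV themselves except at 30 dpa, where it was below every library of the 4 genes, and the part of pericarp RNA in their values was not tested. A pair of libraries stood apart within their timepoints. Replicate 1 of 10 dpa held 2225 TPM of the 8 endosperm transcripts, against 6503 and 5580 TPM in the other two, and replicate 3 of 13 dpa held 2704 TPM, against 6059 and 5066 TPM.

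The 10 most abundant transcripts took 43.6 to 47.6% of all TPM at 30 dpa, against 6.91 to 10.1% at 6 dpa. TPM sums to a fixed total, and the median of the 44,240 genes changed by −0.23 on the log2 TPM scale at 13 dpa against 6 dpa, by −0.93 at 30 dpa against 13 dpa and by −1.1 at 30 dpa against 6 dpa. Each gene is therefore described on both scales below. TPM is the share of a transcript among all transcripts per unit of length. CPM, counts set to a common library total, were scaled with TMM factors, which put the typical gene at no change, and the edgeR test works on that scale. Fewer cells that express a gene and less of its RNA per cell cannot be told apart on either scale in such bulk samples.

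ESV1-B1 was the more abundant ESV1 copy and rose after 8 dpa. It had 11.8, 10.4 and 10.5 TPM in the 3 libraries of 6 dpa, 9.84, 12.6 and 11.4 at 8 dpa, 9.94, 20.8 and 16.0 at 10 dpa and 17.9, 21.6 and 33.2 at 13 dpa. At later timepoints it had 19.2, 17.1 and 24.9 TPM at 15 dpa, 15.3, 16.4 and 16.0 at 18 dpa, 14, 12.3 and 8.24 at 20 dpa and 8.17, 5.19 and 5.99 at 30 dpa. All libraries of 13 and 15 dpa lay above all those of 6 and 8 dpa, and the libraries of 30 dpa lay below all others, by little in the case of replicate 1 and the lowest library of 20 dpa. The highest mean was 24.2 ± 7.94 TPM at 13 dpa (SD, n = 3), carried up by replicate 3, and without that library the highest mean stood at 15 dpa with 20.4 ± 4.0 TPM (SD, n = 3).

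ESV1-A1 stayed close to its first level until 13 dpa. It had 7.87, 7.16 and 7.31 TPM at 6 dpa, 7.13, 9.47 and 6.92 at 8 dpa, 4.27, 9.37 and 7.93 at 10 dpa and 7.30, 7.39 and 9.09 at 13 dpa. It then had 6.45, 5.51 and 8.15 TPM at 15 dpa, 4.83, 5.09 and 5.36 at 18 dpa, 4.68, 5.2 and 3.60 at 20 dpa and 3.26, 2.68 and 1.80 at 30 dpa. The 4 means from 6 to 13 dpa ran only between 7.19 and 7.93 TPM, with overlapping libraries, and all libraries of 30 dpa were below all others. Which of these timepoints had the highest mean turned on single libraries, since 13 dpa gave way to 8 dpa without replicate 1 or 3 of 8 dpa or replicate 3 of 13 dpa, and to 10 dpa without replicate 1 of 10 dpa.

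LESV-A1 was the least abundant of the 4 genes at every timepoint. It had 1.43, 0.966 and 0.834 TPM at 6 dpa, 1.60, 2.48 and 1.53 at 8 dpa, 2.94, 4.49 and 3.87 at 10 dpa and 4.13, 3.98 and 6.87 at 13 dpa. Afterwards it had 3.89, 3.45 and 4.74 TPM at 15 dpa, 2.88, 2.98 and 3.25 at 18 dpa, 2.83, 2.33 and 2.03 at 20 dpa and 0.952, 0.813 and 1.35 at 30 dpa. Each library of 8 dpa exceeded each of 6 dpa, each of 10 dpa exceeded each of 8 dpa, and the libraries of 6 and 30 dpa overlapped. Its highest mean, 4.99 ± 1.63 TPM at 13 dpa (SD, n = 3), stood at 13 dpa with any of the 24 libraries left out.

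LESV-B1 reached its highest TPM earlier. It had 7.30, 6.2 and 5.24 TPM at 6 dpa, 8.71, 11.5 and 7.77 at 8 dpa, 7.18, 16.9 and 16.3 at 10 dpa and 12.2, 12.6 and 11.6 at 13 dpa. It went on with 10.7, 8.95 and 9.70 TPM at 15 dpa, 8.50, 9.27 and 10.5 at 18 dpa, 8.69, 8.41 and 6.16 at 20 dpa and 4.71, 4.36 and 5.09 at 30 dpa. Replicates 2 and 3 of 10 dpa were its highest libraries and replicate 1 of 10 dpa was as low as those of 6 dpa, so the mean of 13.5 ± 5.44 TPM at 10 dpa (SD, n = 3) was uncertain and the highest mean moved to 13 dpa, at 12.1 ± 0.519 TPM (SD, n = 3), without replicate 2 or 3 of 10 dpa.

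**Figure D1:**
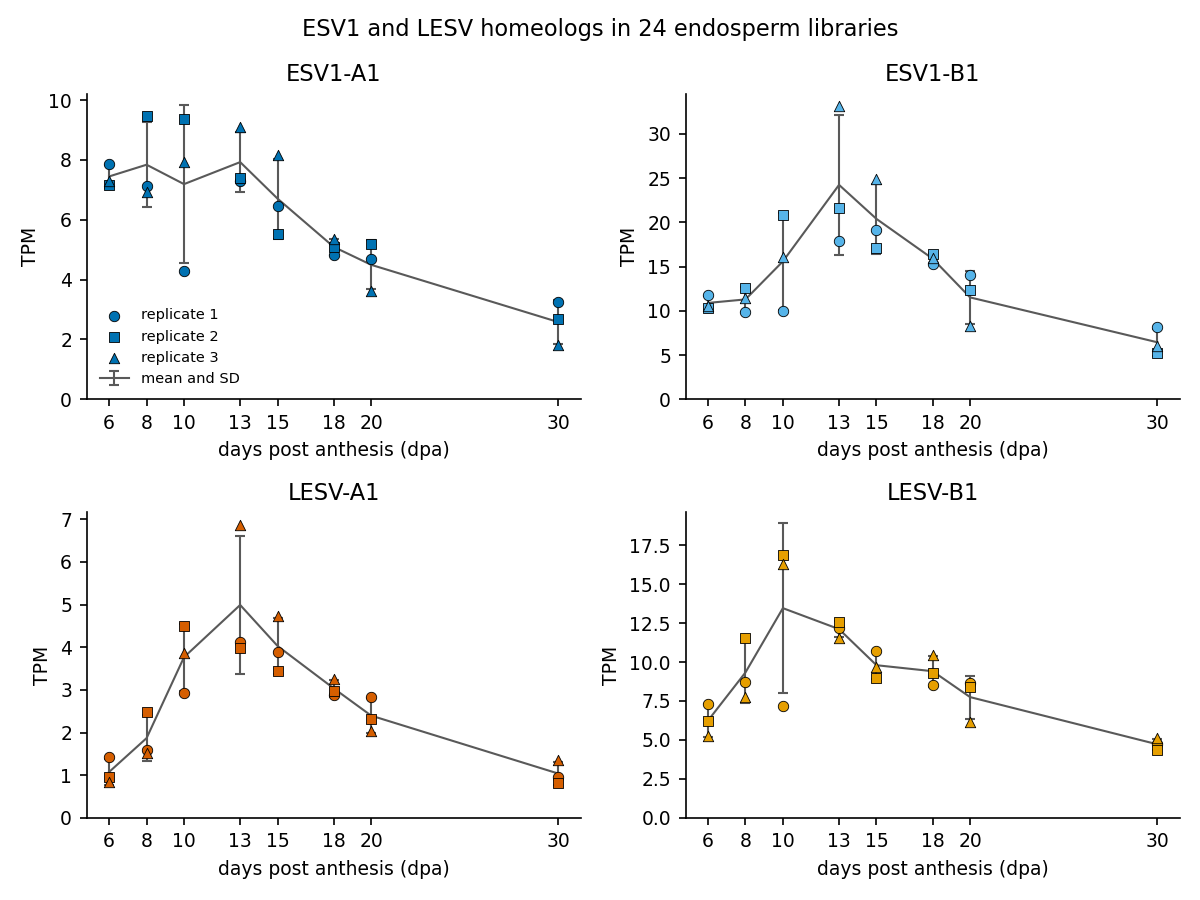
TPM of ESV1-A1, ESV1-B1, LESV-A1 and LESV-B1 (vertical axes, each from 0) against days post anthesis in the 24 endosperm libraries; points are libraries with a symbol per replicate, and lines join the means with SD (n = 3). ESV1-B1 and LESV-A1 were highest at 13 dpa with 24.2 and 4.99 TPM, LESV-B1 at 10 dpa with 13.5 TPM, and ESV1-A1 stayed between 7.19 and 7.93 TPM up to 13 dpa.

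On the count scale the plateau was later and broader. ESV1-B1 averaged 17.7, 17.8, 27.4, 45.7, 52.7, 47.2, 34.3 and 26.1 TMM-scaled CPM from 6 to 30 dpa, and LESV-A1 averaged 2.36, 3.83, 8.69, 12.3, 13.7, 11.7, 9.39 and 5.50. Both were thus highest at 15 dpa on this scale, with 13 and 18 dpa next. LESV-B1 averaged 15.0, 21.4, 34.3, 34.2, 37.4, 40.4, 33.6 and 27.6 TMM-scaled CPM and was highest at 18 dpa, and ESV1-A1 averaged 12, 12.2, 12.5, 15.0, 17.2, 14.9, 13.2 and 10.2 and was highest at 15 dpa. When the 8 timepoints of a gene were put in order of this level, no neighbours in the order differed by the edgeR test in any of the 4 genes. The lowest adjusted p between neighbours was 0.0731 for LESV-A1 (30 against 10 dpa) and 0.0916 for ESV1-B1 (30 against 8 dpa), so the timing of each maximum is not fixed more closely than the run of timepoints around it.

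Change over the whole course was tested in edgeR with an F test on the 8 timepoints, which 74.4% of the 44,240 genes passed at a false discovery rate (FDR) of 0.05. LESV-A1 (adjusted p = 2.03e-06), ESV1-B1 (adjusted p = 6.99e-05) and LESV-B1 (adjusted p = 0.00140) passed, and ESV1-A1 did not (adjusted p = 0.152). Of the 28 pairs of timepoints, a pair counted as changed with an adjusted p of at most 0.05 and more than a 1.5-fold change in edgeR. All 4 genes changed in at least 1 pair, as 84.0% of all genes did. LESV-A1 changed in 14 of 28 pairs, 11 up and 3 down with time, ESV1-B1 in 13, 10 up and 3 down, and LESV-B1 in 10, all up. ESV1-A1 changed in 1, which was a fall at 30 dpa against 15 dpa by 0.76 on the log2 scale (adjusted p = 0.0317). There 20.3% of all genes were called and 10.6% fell, ESV1-B1 and LESV-A1 among them. The call of ESV1-A1 was lost without replicate 1 or 3 of 15 dpa (adjusted p = 0.101 and 0.123) or replicate 2 or 3 of 30 dpa (adjusted p = 0.0942 and 0.141). That of ESV1-B1 was lost without replicate 3 of 15 dpa (adjusted p = 0.0510) or replicate 2 of 30 dpa (adjusted p = 0.0664). Without replicate 2 of 30 dpa ESV1-B1 had 0 falls in the 28 pairs.

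The balance of rises and falls depended on the scale. Tested with limma on log2(TPM + 0.1), ESV1-B1 had 4 rises and 8 falls in the 28 pairs, LESV-A1 had 9 and 8, LESV-B1 had 4 and 7, and ESV1-A1 had 0 rises and 12 falls. That test called 51.2% of all genes at 13 against 6 dpa, 61.6% at 30 against 13 dpa and 70.0% at 30 against 6 dpa. Of these calls 37, 6.13 and 13.9% were rises, in the same order. At 13 against 6 dpa limma called ESV1-B1, LESV-A1 and LESV-B1, as edgeR did.

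At 13 dpa against 6 dpa, 3 of the 4 genes rose, beside 49.7% of all genes called in either direction and 26.0% that rose. LESV-A1 rose most, with 10.3, 11.5 and 15.1 TMM-scaled CPM at 13 dpa, against 3.73, 1.78 and 1.57 at 6 dpa (log2 fold change 2.38, SE 0.30, edgeR adjusted p = 2.22e-06). ESV1-B1 had 34.2, 47.7 and 55.2 TMM-scaled CPM at 13 dpa, against 23.4, 14.6 and 15.1 at 6 dpa (log2 fold change 1.37, SE 0.28, edgeR adjusted p = 3.58e-04), and LESV-B1 had 33.9, 40.4 and 28.3, against 21.3, 12.8 and 11 (log2 fold change 1.19, SE 0.27, edgeR adjusted p = 8.81e-04). The libraries of the timepoints did not overlap for any of these 3 genes, already called by edgeR, on either scale. How many of all genes did so was not counted, so this adds no separate support. ESV1-A1 had 13.8, 16.2 and 15.0 TMM-scaled CPM at 13 dpa, against 15.5, 10.0 and 10.4 at 6 dpa, and its libraries overlapped (log2 fold change 0.32, SE 0.24, edgeR adjusted p = 0.268). The 3 calls stood with each library left out in turn and without both libraries that stood apart.

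By 10 dpa the LESV genes had covered most of this change and ESV1-B1 less of it. At 10 dpa against 6 dpa, where 32.2% of all genes were called and 17.6% rose, LESV-A1 rose by 1.88 (SE 0.30, edgeR adjusted p = 7.00e-05) and LESV-B1 by 1.19 (SE 0.27, edgeR adjusted p = 0.00170) on the log2 scale. The libraries of LESV-B1 overlapped on both scales, as replicate 1 of 10 dpa had 20.0 TMM-scaled CPM, against 21.3 in replicate 1 of 6 dpa. Its call stood with each of the 24 libraries left out in turn. ESV1-B1 was not called, with a log2 fold change of 0.63 (SE 0.27, edgeR adjusted p = 0.0776), although it passed without replicate 1 of 6 dpa (adjusted p = 0.0290) or replicate 1 of 10 dpa (adjusted p = 0.0293). GBSSII-B1, the pericarp synthase, rose over the same days, with a log2 fold change of 1.34 (SE 0.30, edgeR adjusted p = 0.00156), and its part in the LESV values was not tested.

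Between neighbouring timepoints edgeR made 1 call among the 4 genes on the count scale. LESV-A1 rose at 10 dpa against 8 dpa, with 2.94, 4.49 and 3.87 TPM at 10 dpa, against 1.60, 2.48 and 1.53 TPM at 8 dpa (log2 fold change 1.18, SE 0.29, edgeR adjusted p = 0.0106), where 12.2% of all genes were called and 7.54% rose. This call was lost without replicate 1 of 8 dpa (adjusted p = 0.0642), replicate 3 of 8 dpa (adjusted p = 0.0518) or replicate 2 of 10 dpa (adjusted p = 0.0632). LESV-B1 was not called there, and passed without replicate 1 of 10 dpa, the library low in endosperm transcripts (log2 fold change 0.95, adjusted p = 0.0132). At 8 dpa against 6 dpa, where edgeR called 3.07% of all genes and DESeq2 called 2332 of 44,240, neither called any of the 4 genes. LESV-A1 had an edgeR p of 0.0270 before adjustment, and passed without replicate 1 of 6 dpa (log2 fold change 1.19, edgeR adjusted p = 0.0175). None was called by edgeR at 13 against 10 dpa (9.11% of all genes), 15 against 13 dpa (0.0633%), 18 against 15 dpa (0.00%), 20 against 18 dpa (0.212%) or 30 against 20 dpa (10.2%). DESeq2 called 0 of the 4 at these steps too, beside 5804, 428, 34, 1785 and 5729 of the 44,240 genes in the same order. Before adjustment ESV1-B1 at 13 against 10 dpa and LESV-A1 at 30 against 20 dpa had an edgeR p under 0.05. ESV1-B1 passed in edgeR at 13 against 10 dpa with only genes of at least 10 CPM in 3 libraries tested (log2 fold change 0.88, adjusted p = 0.0295) and without replicate 2 of 10 dpa (log2 fold change 1.00, adjusted p = 0.0306). LESV-A1 passed at 30 against 20 dpa without replicate 1 of 6 dpa (log2 fold change −0.76, edgeR adjusted p = 0.0471) or replicate 3 of 30 dpa (log2 fold change −1.07, edgeR adjusted p = 0.0461). At 30 against 20 dpa limma on log2(TPM + 0.1) called falls of ESV1-A1 (−0.80, adjusted p = 0.0322), ESV1-B1 (−0.82, adjusted p = 0.0349) and LESV-A1 (−1.15, adjusted p = 0.00495), and not of LESV-B1. On log2(TPM + 1) limma called LESV-A1 alone (−0.74, adjusted p = 0.0168). With library totals alone edgeR called falls of all 4 genes there. The share of all genes called by these settings is not given here. At 18 against 15 dpa few genes of any kind moved, with 34 of 44,240 called by DESeq2 and 2510 with p under 0.05 in edgeR before adjustment.

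At 30 dpa against 13 dpa, 2 of the 4 genes fell, where 27.4% of all genes were called and 14.7% fell. LESV-A1 had 5.15, 3.82 and 7.52 TMM-scaled CPM at 30 dpa, against 10.3, 11.5 and 15.1 at 13 dpa (log2 fold change −1.15, SE 0.29, edgeR adjusted p = 0.00538). ESV1-B1 had 33.9, 18.8 and 25.7 TMM-scaled CPM at 30 dpa, against 34.2, 47.7 and 55.2 at 13 dpa (log2 fold change −0.81, SE 0.28, edgeR adjusted p = 0.0310). The highest library of 30 dpa lay close under the lowest of 13 dpa for ESV1-B1, and its call was lost without replicate 2 or 3 of 13 dpa (adjusted p = 0.0745 and 0.112) or replicate 2 or 3 of 30 dpa (adjusted p = 0.0763 for replicate 3 and 0.141 for replicate 2). ESV1-A1 (log2 fold change −0.55, adjusted p = 0.0945) and LESV-B1 (log2 fold change −0.31, adjusted p = 0.397) did not pass in edgeR, although ESV1-A1 did without replicate 1 of 30 dpa (log2 fold change −0.79, adjusted p = 0.0318). With each library left out in turn the change of LESV-B1 ran between −0.43 and −0.17. In TPM the means of all 4 genes were lower at 30 dpa, beside the median gene at −0.93. The changes were −1.62, −1.91, −2.27 and −1.36 on the log2 scale for ESV1-A1, ESV1-B1, LESV-A1 and LESV-B1. Their libraries did not overlap in TPM. On the count scale those of LESV-B1 overlapped, with 28.2, 22.8 and 31.7 TMM-scaled CPM at 30 dpa, against 33.9, 40.4 and 28.3 at 13 dpa, and those of the other genes did not. How many of all genes lacked overlap was not counted, so its lack adds no separate support. GBSSII-B1 fell between the same timepoints by 3.02 on the log2 scale (edgeR adjusted p = 1.29e-06), more than any of the 4 genes, and its part in their fall was not tested.

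At 30 dpa against 6 dpa the direction itself turned with the scale. In edgeR LESV-A1 rose by 1.23 (SE 0.30, adjusted p = 0.00136) and LESV-B1 by 0.88 (SE 0.27, adjusted p = 0.00724) on the log2 scale, 2 of the 4 genes beside 57.7% of all genes called and 28.7% that rose, while in TPM their means changed by −0.05 and −0.40. LESV-A1 had 0.952, 0.813 and 1.35 TPM at 30 dpa, against 1.43, 0.966 and 0.834 TPM at 6 dpa, and the same libraries gave 5.15, 3.82 and 7.52 TMM-scaled CPM, against 3.73, 1.78 and 1.57. LESV-B1 had 4.71, 4.36 and 5.09 TPM at 30 dpa, all below 7.30, 6.2 and 5.24 TPM at 6 dpa, and 28.2, 22.8 and 31.7 TMM-scaled CPM at 30 dpa, all above 21.3, 12.8 and 11 at 6 dpa. The LESV genes thus rose relative to the typical gene and not as a share of all transcripts. ESV1-B1 was not called in edgeR (log2 fold change 0.56, SE 0.27, adjusted p = 0.0828, but 0.0257 without replicate 1 of 6 dpa and 0.0330 without replicate 2 of 30 dpa) and was at −0.76 in TPM. ESV1-A1 was lower on both scales, at −0.23 in edgeR (SE 0.25, adjusted p = 0.426) and −1.53 in TPM, and was the 1 gene of the 4 whose TPM lay below the median gene, at −1.1.

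**Figure D2:**
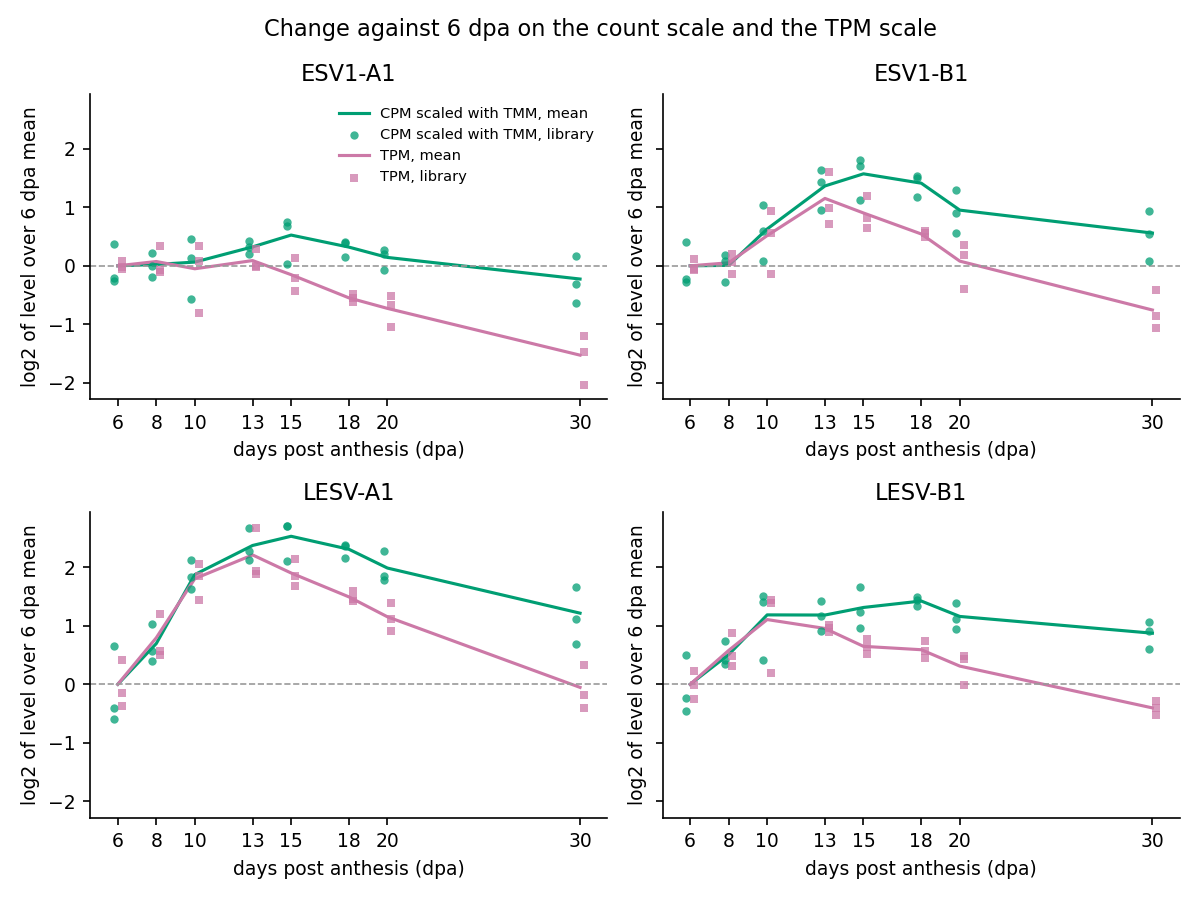
Log2 of the level over the mean of 6 dpa (vertical axis) against days post anthesis for the 4 genes, in green as CPM scaled with TMM and in pink as TPM; lines join means (n = 3), points are libraries set slightly aside from their timepoint, and the dashed line marks no change. Both scales ran together up to 10 dpa and parted later, so that at 30 dpa LESV-A1 stood at 1.23 in edgeR and at −0.05 in TPM.

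The A and B homeologs of each pair were compared within libraries, where the scale between libraries does not matter. Reads that fit both homeologs were divided between them by the estimation in kallisto, so the split is less certain than the sum. The B copy was the more abundant in all 24 libraries for both ESV1 and LESV. The log2 ratio of B to A, with 0.1 TPM added, was tested with limma in 47 pairs of homeologs of starch-related genes. It changed over the timepoints for ESV1 (F test, adjusted p = 2.39e-06) and for LESV (adjusted p = 0.000124), and in 40 of the 47 pairs (85.1%), so a shift between homeologs was usual among starch genes. The range of the ratio over timepoints was 1.18 on the log2 scale for LESV and 1.1 for ESV1, the 15th and 17th of the 47 pairs.

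The pairs shifted in opposite directions. ESV1-B1 made up 60.0, 59.1 and 59.1% of ESV1 TPM at 6 dpa, 58.0, 57.1 and 62.3% at 8 dpa, 69.9, 68.9 and 66.9% at 10 dpa and 71.1, 74.5 and 78.5% at 13 dpa. It then held 74.8, 75.7 and 75.3% at 15 dpa, 76.0, 76.4 and 74.9% at 18 dpa, 75, 70.3 and 69.6% at 20 dpa and 71.5, 65.9 and 76.9% at 30 dpa. All libraries from 10 dpa on lay above all those of 6 and 8 dpa. The log2 ratio of ESV1-B1 to ESV1-A1 was 1.56 ± 0.29 at 13 dpa and 0.54 ± 0.03 at 6 dpa (SD, n = 3 each), a rise of 1.02 (SE 0.16, limma adjusted p = 1.02e-05), where the ratio rose in 27.7% of the 47 pairs and changed in 70.2%. It was also higher at 30 dpa than at 6 dpa, by 0.76 (limma adjusted p = 1.94e-04), where 27.7% rose and 70.2% changed, and the change of −0.26 at 30 dpa against 13 dpa did not pass (limma adjusted p = 0.162). That change turned on single libraries, as it was −0.45 without replicate 3 of 30 dpa (adjusted p = 0.0175) and −0.39 without replicate 1 of 13 dpa (adjusted p = 0.0493), which passed, but −0.07 without replicate 2 of 30 dpa (adjusted p = 0.722) and −0.11 without replicate 3 of 13 dpa (adjusted p = 0.593).

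LESV-B1 made up 83.6, 86.5 and 86.3% of LESV TPM at 6 dpa, 84.5, 82.3 and 83.6% at 8 dpa, 71.0, 79.0 and 80.8% at 10 dpa and 74.7, 76.0 and 62.7% at 13 dpa. It held 73.4, 72.2 and 67.2% at 15 dpa, 74.7, 75.7 and 76.3% at 18 dpa, 75.4, 78.3 and 75.2% at 20 dpa and 83.2, 84.3 and 79.1% at 30 dpa. The share was lowest in the middle of development and returned toward its first value, with no overlap between 13 dpa and either 6 or 30 dpa. The log2 ratio of LESV-B1 to LESV-A1 was 1.31 ± 0.49 at 13 dpa and 2.45 ± 0.15 at 6 dpa (SD, n = 3 each), a fall of 1.14 (SE 0.21, limma adjusted p = 6.33e-05), where the ratio fell in 42.6% of the 47 pairs. It rose by 0.80 at 30 dpa against 13 dpa (SE 0.21, limma adjusted p = 0.00317), where 27.7% rose and 59.6% changed, and 30 against 6 dpa did not pass (change −0.34, limma adjusted p = 0.137). Replicate 3 of 13 dpa had both the highest ESV1-B1 share and the lowest LESV-B1 share of all libraries. Without it and replicate 1 of 10 dpa the changes at 13 against 6 dpa were 0.87 for ESV1 (adjusted p = 1.73e-04) and −0.86 for LESV (adjusted p = 4.04e-05), and the change of LESV at 30 against 6 dpa then passed (−0.34, adjusted p = 0.0203). Without replicate 3 of 13 dpa alone the rise of the LESV ratio at 30 against 13 dpa was 0.52 (adjusted p = 0.0246), and without replicate 3 of 30 dpa its change at 30 against 6 dpa was −0.21 (adjusted p = 0.409).

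**Figure D3:**
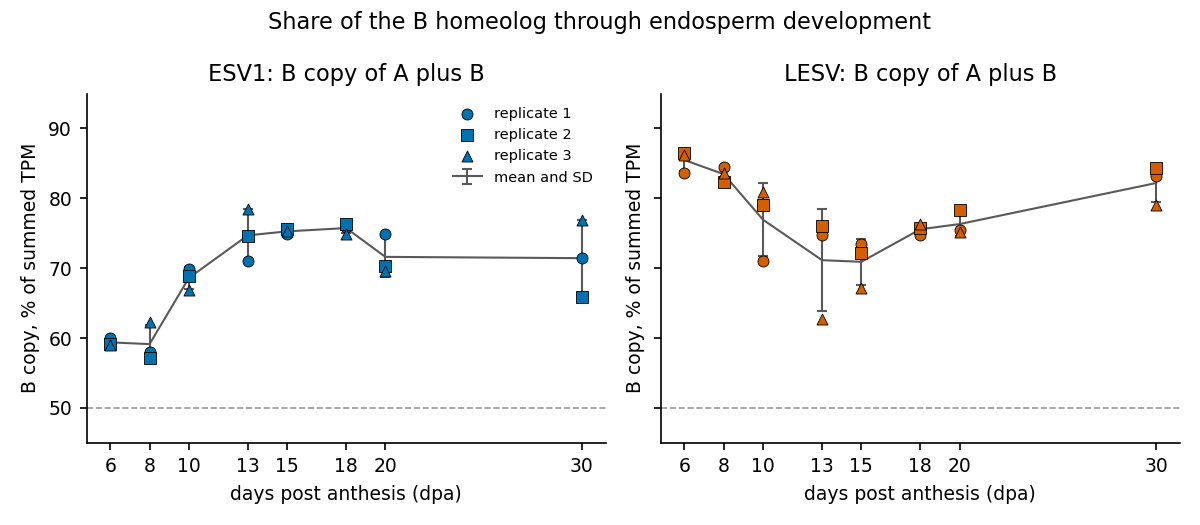
Share of the B homeolog in the summed TPM of the A and B copies (percent, axis from 45 to 95) against days post anthesis, for ESV1 on the left and LESV on the right; points are libraries with a symbol per replicate, lines join means with SD (n = 3), and the dashed line marks equal shares. The ESV1-B1 share was 65.9 to 78.5% from 10 dpa on, against 57.1 to 62.3% up to 8 dpa, and the LESV-B1 share was 62.7 to 76.0% at 13 and 15 dpa, against 82.3 to 86.5% up to 8 dpa.

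Summed over their copies, ESV1 had 18.3, 19.1, 22.8, 32.2, 27.1, 21, 16.0 and 9.03 TPM on average from 6 to 30 dpa, and LESV had 7.32, 11.2, 17.2, 17.1, 13.8, 12.4, 10.1 and 5.76 TPM. ESV1 exceeded LESV in all 24 libraries. The sums were put through the same edgeR model, an alternative chosen after the data were seen, in which LESV rose at 10 against 6 dpa (log2 fold change 1.3, adjusted p = 5.60e-04) and ESV1 did not pass (0.43, adjusted p = 0.204). At 13 against 6 dpa ESV1 rose by 1.03 (adjusted p = 0.00243) and LESV by 1.42 (adjusted p = 1.15e-04). The sums do not depend on how reads were divided between copies.

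The ratio of ESV1 to LESV followed from this. It was 2.25, 2.45 and 2.94 in the libraries of 6 dpa, 1.65, 1.58 and 1.97 at 8 dpa, 1.40, 1.41 and 1.19 at 10 dpa, 1.54, 1.75 and 2.29 at 13 dpa and 1.75, 1.83 and 2.29 at 15 dpa. At 18 dpa it was 1.77, 1.76 and 1.56, at 20 dpa 1.62, 1.63 and 1.45 and at 30 dpa 2.02, 1.52 and 1.21. The libraries of 10 dpa lay below those of all other timepoints except 30 dpa, whose spread covered much of the later course. The change of the ratio over the timepoints passed a permutation test (100,000 permutations of the timepoint labels, F statistic, p = 0.00403), and with each library left out in turn p ran between 0.00072 and 0.0236.

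**Figure D4:**
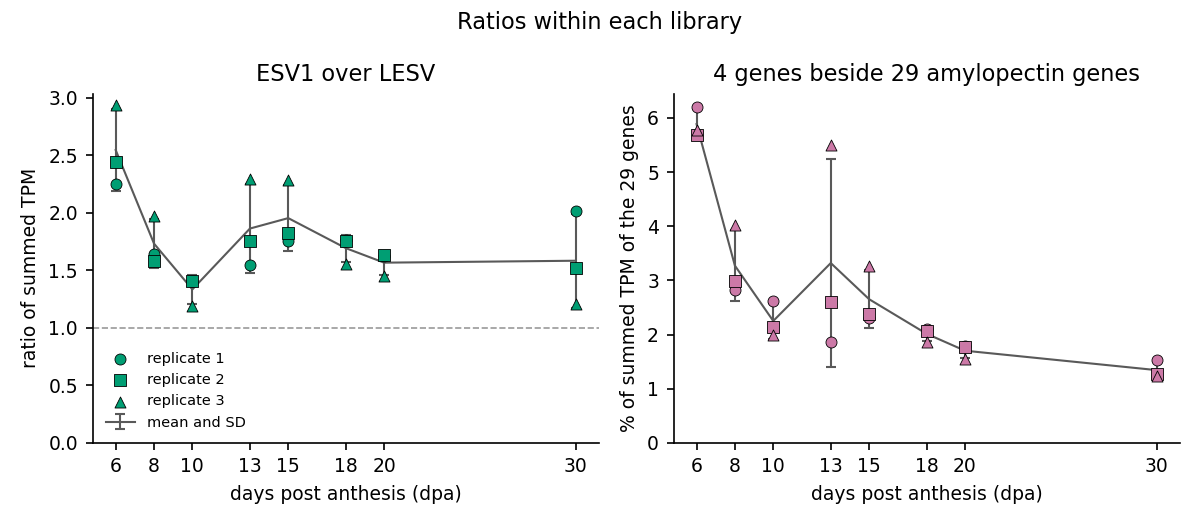
Ratios within each library against days post anthesis, with points for libraries (a symbol per replicate) and lines joining means with SD (n = 3). On the left, summed ESV1 over summed LESV in TPM was 1.19 to 1.41 at 10 dpa, against 2.25 to 2.94 at 6 dpa; on the right, the 4 genes made up 1.23 to 1.53% of the TPM of the 29 genes of amylopectin synthesis at 30 dpa, against 5.68 to 6.20% at 6 dpa, and replicate 3 of 13 dpa stood apart at 5.50%.

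ESV1 and LESV were set beside the rest of the amylopectin synthesis category of the starch gene list, which holds 25 other genes for starch synthases, branching enzymes and isoamylases, all of them tested. At 13 dpa against 6 dpa, 20 of the 25 rose and 2 fell, with a median log2 fold change of 1.96 beside 0.01 over all genes, and the 3 of ESV1 and LESV that rose did so by 1.19, 1.37 and 2.38. At 30 dpa against 13 dpa, 7 of the 25 rose and 2 fell (median log2 fold change 0.12 beside −0.07 over all genes). Of the 4 genes 0 rose and 2 fell, where 12.7% of all genes rose and 14.7% fell. At 30 dpa against 6 dpa, 21 rose and 1 fell (median log2 fold change 1.89 beside −0.01 over all genes), and 2 of the 4 rose. Between 13 and 30 dpa 16 of the 25 did not pass in either direction, while LESV-A1 and ESV1-B1 fell. The call of ESV1-B1 turned on single libraries, as given above. The difference between the 4 genes and the 25 was not tested.

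In level, the 4 genes were in the lower part of that category. Over the 24 libraries ESV1-B1 averaged 14.5 TPM (rank 17 of 29), LESV-B1 9.10 (rank 21), ESV1-A1 6.16 (rank 22) and LESV-A1 2.77 TPM (rank 23). These means lay below that of every copy of the 6 core enzymes SS1, SS2a, SBE1.1, SBE2a, SBE2b and ISA1, the lowest of which was ISA1-B1 at 37.8 TPM and the highest SBE2a-A1, a branching enzyme, at 183 TPM. The order was not the same at each timepoint, and at 6 dpa ESV1-B1, at 10.9 TPM, stood above the branching enzyme copy SBE1.1-B1, at 9.89 TPM, with libraries that overlapped. Below LESV-A1 stood the copies of SS3b, SS2c and SS2b, starch synthases of low level in these libraries. Among all transcripts with a mean of at least 1 TPM, ESV1-B1 lay above 68.3% of 20,603 at 30 dpa and above 84.6% of 26,475 at 13 dpa. LESV-B1 lay above 58.9% at 30 dpa and 72.3% at 13 dpa, ESV1-A1 above 37.3% and 61.7%, and LESV-A1 above 1.4% and 48.3%, so all 4 stood lower in this order at 30 dpa than at 13 dpa. The mean of LESV-A1 at 30 dpa, 1.04 TPM, lay at the cut-off of 1 TPM. At 6 dpa the values were 68.0% for ESV1-B1, 53.0% for LESV-B1, 58.0% for ESV1-A1 and 1.70% for LESV-A1. ESV1-B1 and LESV-B1 thus stood no lower at 30 dpa than at 6 dpa. Together the 4 genes made up 5.89 ± 0.276, 3.27 ± 0.649, 2.25 ± 0.327, 3.32 ± 1.92, 2.65 ± 0.540, 2.01 ± 0.131, 1.70 ± 0.129 and 1.34 ± 0.168% of the summed TPM of the 29 genes from 6 to 30 dpa (SD, n = 3 each). The share at 6 dpa was above that of every later library, and the share at 30 dpa below that of every earlier one. At 13 dpa it was 1.86, 2.60 and 5.50%, and in replicate 3, which gave the highest of these, the 12 core transcripts summed to 911 TPM, against 1977 and 1545 TPM in replicates 1 and 2, while ESV1-B1 and LESV-A1 were at their highest.

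**Figure D5:**
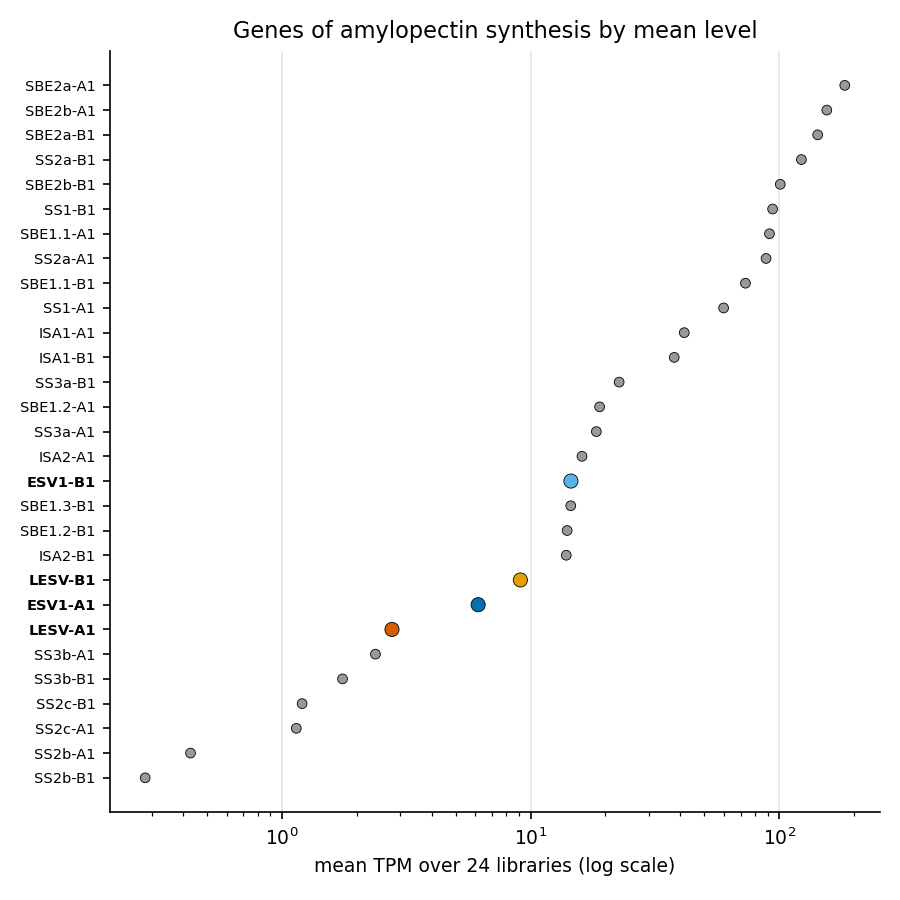
Mean TPM over the 24 libraries (log axis) of the 29 genes of amylopectin synthesis, from the highest at the top to the lowest; ESV1 and LESV are coloured and in bold. They hold ranks 17, 21, 22 and 23, with 14.5, 9.10, 6.16 and 2.77 TPM, below the means of all core enzymes over the same 24 libraries, of which ISA1-B1 had 37.8 TPM.

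Likeness of pattern was described as the correlation of log2 TMM-scaled CPM over the 24 libraries, which share timepoints, replicates and scale factors, and no test was made. Within ESV1 and LESV, the pattern of ESV1-B1 was nearest to LESV-A1 (Pearson r = 0.908), then to LESV-B1 (r = 0.833), and only then to its own homeolog ESV1-A1 (r = 0.759). These were its 57th, 880th and 2886th nearest genes. LESV-A1 and LESV-B1 had r = 0.899, with LESV-B1 the 399th nearest gene of LESV-A1 and LESV-A1 the 155th nearest of LESV-B1. ESV1-A1 was the least like the others, with r = 0.582 for LESV-A1 and 0.618 for LESV-B1, yet ESV1-B1 was its 7th nearest of 44,239 genes.

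Among the starch-related genes, ESV1-B1 was nearest to GWD1.1-B1, a glucan, water dikinase that phosphorylates starch (r = 0.921, 24th of all genes). It was followed by LESV-A1 and by PTST1-A1 (r = 0.864, 347th of all genes), a copy of the protein that brings granule-bound synthase to starch. LESV-A1 was nearest to pAGPL-A1, the large subunit of the plastidial AGPase (r = 0.961, 8th of all genes), and to the branching enzyme SBE1.3-B1 (r = 0.936, 82nd of all genes). LESV-B1 was nearest to SBE2a-B1 (r = 0.944), the isoamylase ISA2-B1 (r = 0.943) and the starch synthase SS2a-B1 (r = 0.943), which were its 9th, 11th and 12th nearest genes of all. ESV1-A1 had its own homeolog first and then LSF1-B1, Like Sex Four1, at r = 0.624 (281st of all genes). Over all genes the nearest were TRITD1Av1G107020 for ESV1-B1 (r = 0.949), TRITD2Bv1G164620 for ESV1-A1 (r = 0.779), TRITD1Av1G219130 for LESV-A1 (r = 0.974) and TRITD3Bv1G272830 for LESV-B1 (r = 0.961).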

How the data were processed

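RNA of dissected endosperm was poly-A selected and read as 150 bp pairs. The authors ran kallisto on them against 1 canonical transcript per gene of the Svevo v1 annotation (version 0.46.1 in the submitters' notes), and deposited its estimated counts, not scaled between libraries, and its TPM, which sum to 1,000,000 per library. Of the 66,559 transcripts, 63,993 matched the gene table by ID. Estimated counts were rounded and tested with edgeR 4.0.16 in R 4.3.3 (quasi-likelihood, TMM factors of 0.486 to 1.83, timepoint as a factor, 24 libraries in 1 model, at least 10 counts in at least 3 libraries). P-values were adjusted by Benjamini-Hochberg over the 44,240 genes within each comparison. An SE given with an edgeR change is the absolute log2 fold change over the square root of its F statistic. It was thus derived from the test and not estimated apart from it. Homeolog ratios were tested with limma 3.58.1 and the family ratio by permutation in Python 3.11.15 with numpy 2.4.6. A log2 TPM change is the log2 of the ratio of means, unless limma with a pseudocount is named.

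The 4 genes, the gene lists and the tests were chosen with earlier results of these data known. The genes named are the 4 members, the core amylopectin enzymes, marker genes, and by likeness the 3 nearest starch-related genes and the nearest gene of all. Errors are spreads between replicates, which for the 4 genes came to a biological coefficient of variation of 21.5 to 25.2% in edgeR. No replicates of a timepoint were duplicates, as the chi-square per degree of freedom was at least 41.3 in the 24 pairs within timepoints. Alternatives were DESeq2 1.42.0, edgeR with DESeq2 size factors or with library totals alone, a log2 fold of 1.5 or none, no filter, a filter of 10 CPM, limma on log2(TPM + 0.1) or log2(TPM + 1), only the libraries compared, a replicate block, other pseudocounts, and each library left out. Leaving out both libraries that stood apart, and summing copies, were added after the data were seen. The fits were tested on simulated data.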

Additional observations from a re-analysis of the deposited data

How the results depend on the processing

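At 13 against 6 dpa 3 of the 4 genes were called under the alternatives run, save for 1 with a log2 fold of more than 1.5 (28.4% of all genes called). At 30 against 13 dpa the 2 calls became 0 at that fold (14.5%), 4 with no scaling beyond library totals (66.0%), 4 with limma on log2(TPM + 0.1) (61.6%), 4 with limma on log2(TPM + 1) (45.3%), 1 with only the 6 libraries compared (20.0%), 1 without both libraries that stood apart (27.4%), and 1 to 3 with each library left out in turn. At 30 against 6 dpa the 2 calls, both rises, became 0 at that fold (35.8%), 3 rises with a filter of 10 CPM (65.1%, ESV1-B1 added with adjusted p = 0.0428 in edgeR), 3 falls with library totals alone (75.3%, all but LESV-A1), 2 falls with limma on log2(TPM + 0.1) (70.0%) and on log2(TPM + 1) (54.0%), both times of ESV1-A1 and ESV1-B1, and 2 to 3 rises with each library left out. The percentages count calls in either direction. At 30 against 13 dpa rises made up 5.06% of all calls with library totals alone, 6.13% with limma on log2(TPM + 0.1) and 5.5% on log2(TPM + 1). At 30 against 6 dpa they made up 10.9, 13.9 and 12.5% in the same order, and 48.3% with the filter of 10 CPM. Most genes called with library totals alone or with limma on TPM thus fell, like the members called. At a log2 fold of more than 1.5, 2 genes were called in at least 1 of 28 pairs (55.7% of all genes). At the main threshold of 1.5-fold all 4 were (84.0% of all genes), and 3 to 4 with each library left out.

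The direction at 30 against 6 dpa reversed with no scaling beyond library totals, which gave −1.18 for ESV1-B1, −0.50 for LESV-A1 and −0.86 for LESV-B1. It also reversed with limma on log2(TPM + 0.1) (−0.77, −0.044 and −0.39 in the same order) and on log2(TPM + 1) (−0.69, −0.025 and −0.33). These settings leave in the shift of the median gene given above. DESeq2, its size factors, no filter and no fold threshold altered the call of none of 48 changes of single genes between chosen pairs of timepoints. Over all 28 pairs LESV-B1 had 8 calls with DESeq2 size factors and 9 with no filter, in place of 10. With a library left out it had between 7 (without replicate 1 of 8 dpa) and 11 (without replicate 1 of 10 dpa).

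The labels do not say whether replicate numbers pair the libraries. Deviations of libraries with the same number had a median correlation of 0.000455 over 84 pairs, 27 of them over 0.1. With different numbers the median was −0.00157 over 168 pairs, 36 of them over 0.1. Of 24 libraries, 13 were most like one of their own number at another timepoint, although pairs with different numbers were the more frequent (168 against 84). No test of this was made, and whether libraries of the same number shared plants was not tested. With a replicate block none of the 48 changes altered its call, the homeolog ratios changed with adjusted p = 5.67e-06 (ESV1) and 1.53e-04 (LESV), and the family ratio with p = 0.00406 by permutation after the mean of each replicate number was taken off. In the 28 pairs the block left LESV-B1 with 8 calls in place of 10 and ESV1-B1 with 12 in place of 13. With 3 libraries per timepoint and 129 counts at the lowest, replicate spread, not depth, set the precision.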
